A study of Mus musculus with 2 samples.

Results

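The LKB1 complex is described here through the transcripts of its 5 genes: Stk11, which encodes the kinase LKB1, the STRAD genes Strada and Stradb, and the MO25 genes Cab39 and Cab39l. They were taken by symbol from the gene lists of both libraries, where each symbol occurred once, and are 5 of 31053 genes listed. Whole lung cells of mice aged 5 weeks were counted by droplet sequencing of transcript 3' ends, with 1 library per genotype, and each library held cells pooled from 3 mice. The control mice were Lkb1f/f, that is, they carried loxP-flanked alleles of Lkb1 (gene symbol Stk11) and no Cre. The other mice, called Cre here, were Nkx2.1 Cre;Lkb1f/f and so carried the same floxed alleles together with a Cre recombinase under Nkx2.1, a transcription factor of the lung epithelial lineage. The floxed alleles were therefore common to both groups, and the driver restricts recombination to cells with a history of Nkx2.1 expression.

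LKB1 is a serine/threonine kinase that is not active alone. A STRAD pseudokinase binds it and switches it on allosterically, and the scaffold protein MO25 holds the pair together in the cytoplasm. The active complex phosphorylates AMPK, the energy-sensing kinase, and a family of AMPK-related kinases that include the SIK, MARK and NUAK enzymes, and loss of LKB1 is known from lung tumours.

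The control library held 13587 barcodes and 74219499 UMIs, or unique molecular identifiers, which mark single captured transcripts. The Cre library held 16821 barcodes and 81598779 UMIs. Filtering left 12455 control cells at a median of 3611 UMIs and 14675 Cre cells at a median of 3250. Barcodes present in both libraries numbered 68, of which 59 passed the filter in both. Cells were clustered and named from marker genes, which gave 24 cell classes with at least 50 cells in each library. The classes of the epithelium were AT2-like (1210 control and 1600 Cre cells), AT1-like (126 and 327), club-like (206 and 265) and ciliated-like (103 and 80). Nkx2-1 itself had 219 control and 311 Cre CPM in AT2-like cells, against 1.59 and 3.30 CPM in B cell-like cells. Spp1 macrophage-like cells (393 Cre cells, none in the control) and immature T-like cells (237 Cre, 16 control) reached 50 cells in the Cre library only. Values are UMIs of a gene as counts per 1000000 UMIs of its class and library (CPM). A single library per genotype leaves no spread between replicates, so no test was made, and genotype cannot be told apart from the pooled mice or from the library that carried it. Ranges in parentheses after a level, ratio or share are 95% intervals of counting error only. Where 2 such intervals are said to overlap, a difference between the values is not excluded.

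Positions of the 5 genes are given in GRCm38 (GENCODE M21 annotation). Stk11 (ENSMUSG00000003068) spans chr10:80115803-80130682 on the plus strand, and a neighbour on the opposite strand, Cbarp, overlaps its last exon. Strada (ENSMUSG00000069631) spans chr11:106163330-106202168 on the minus strand and overlaps Ccdc47 on the same strand. Stradb (ENSMUSG00000026027) lies at chr1:58973522-58995715 and Cab39 (ENSMUSG00000036707) at chr1:85793441-85851576, both on the plus strand and free of overlapping genes. Cab39l (ENSMUSG00000021981) spans chr14:59440972-59585764 on the plus strand and overlaps Cdadc1 on the opposite strand. Whether the counting used strand is not given in the sources used here, so reads of overlapping neighbours could have been counted for these genes. In AT2-like cells Cbarp had 13.2 control and 13.7 Cre CPM, and Cdadc1 had 19.7 and 20 CPM. The level of Ccdc47 over all kept cells was 52.0 CPM for the control and 65.0 for the Cre library.

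The 250 bases upstream of the start sites of Stk11, Cab39 and Cab39l are shown because these 3 genes carried the differences in AT2-like cells described below, with Cab39 and Cab39l, the paralogues, in opposite directions. The windows come from RefSeq (GRCm38.p6) and read 5′ to 3′ on the plus strand, and capitals mark TGACG (or CGTCA, its reverse complement) and CCAAT (or ATTGG).
Stk11, chr10:80115545-80115794: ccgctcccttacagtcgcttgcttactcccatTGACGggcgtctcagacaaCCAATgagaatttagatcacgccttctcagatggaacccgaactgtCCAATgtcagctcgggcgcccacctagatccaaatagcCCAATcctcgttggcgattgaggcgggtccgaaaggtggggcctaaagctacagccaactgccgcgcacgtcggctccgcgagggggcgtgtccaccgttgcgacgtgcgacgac
Cab39, chr1:85793191-85793440: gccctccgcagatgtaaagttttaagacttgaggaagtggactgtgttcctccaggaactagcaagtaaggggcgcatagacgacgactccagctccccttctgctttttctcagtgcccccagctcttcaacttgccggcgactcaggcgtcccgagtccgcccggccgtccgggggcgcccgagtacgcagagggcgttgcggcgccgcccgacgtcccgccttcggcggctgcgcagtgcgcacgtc
Cab39l, first start site, chr14:59440713-59440962: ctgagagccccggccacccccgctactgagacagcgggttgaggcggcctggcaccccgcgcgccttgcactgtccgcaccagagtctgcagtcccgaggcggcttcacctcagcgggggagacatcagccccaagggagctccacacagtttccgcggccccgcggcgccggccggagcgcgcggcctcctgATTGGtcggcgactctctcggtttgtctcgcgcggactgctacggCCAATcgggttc
Cab39l, second start site, chr14:59478701-59478950: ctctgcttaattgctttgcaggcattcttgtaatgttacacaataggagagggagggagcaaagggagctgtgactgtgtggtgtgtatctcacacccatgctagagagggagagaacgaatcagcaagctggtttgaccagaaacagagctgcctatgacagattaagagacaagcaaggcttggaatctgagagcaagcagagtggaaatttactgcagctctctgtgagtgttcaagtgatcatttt
The Stk11 window held 1 TGACG and 3 CCAAT motifs and 24 CpG dinucleotides. The Cab39 window held neither motif and 27 CpG, and the first Cab39l window 2 CCAAT motifs and 29 CpG. The second Cab39l window had 1 CpG and neither motif. Of the other members, Stradb (chr1:58973272-58973521) had 1 TGACG and 16 CpG, and Strada (chr11:106193604-106193853, minus strand) had neither motif and 13 CpG. Over all 32851 windows of this length, 17.8% held TGACG and 33.8% held CCAAT in either orientation, and the median number of CpG was 6. A match is a description of letters, and the data here do not measure binding at these windows.

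Stk11 was detected in every class of both libraries, at the levels shown in the plot of the 5 genes by cell class. Neutrophil-like cells had the highest level of both libraries, 83.9 CPM (76.6 to 91.7) for the control and 92.1 CPM (78.6 to 107) for the Cre library. In the control the next were arterial-like cells at 71.9, AT1-like cells at 70.1 and ciliated-like cells at 68.4 CPM. Club-like cells stood lowest at 15.1 CPM (12.3 to 18.3) in the control and erythroid-like cells lowest at 14.8 CPM (8.90 to 23.1) in the Cre library, next to club-like cells at 16.5 CPM. The median over classes was 49.3 CPM for the control and 56.4 for the Cre library. Neighbours in this order mostly had overlapping intervals: none of the 23 adjacent pairs was separate in the control and 2 of 25 were in the Cre library. AT2-like cells, at 49.7 CPM, took a middle place among control classes. In the Cre library they stood at 29.9 CPM, with only club-like and erythroid-like cells lower.

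**Figure D1:**
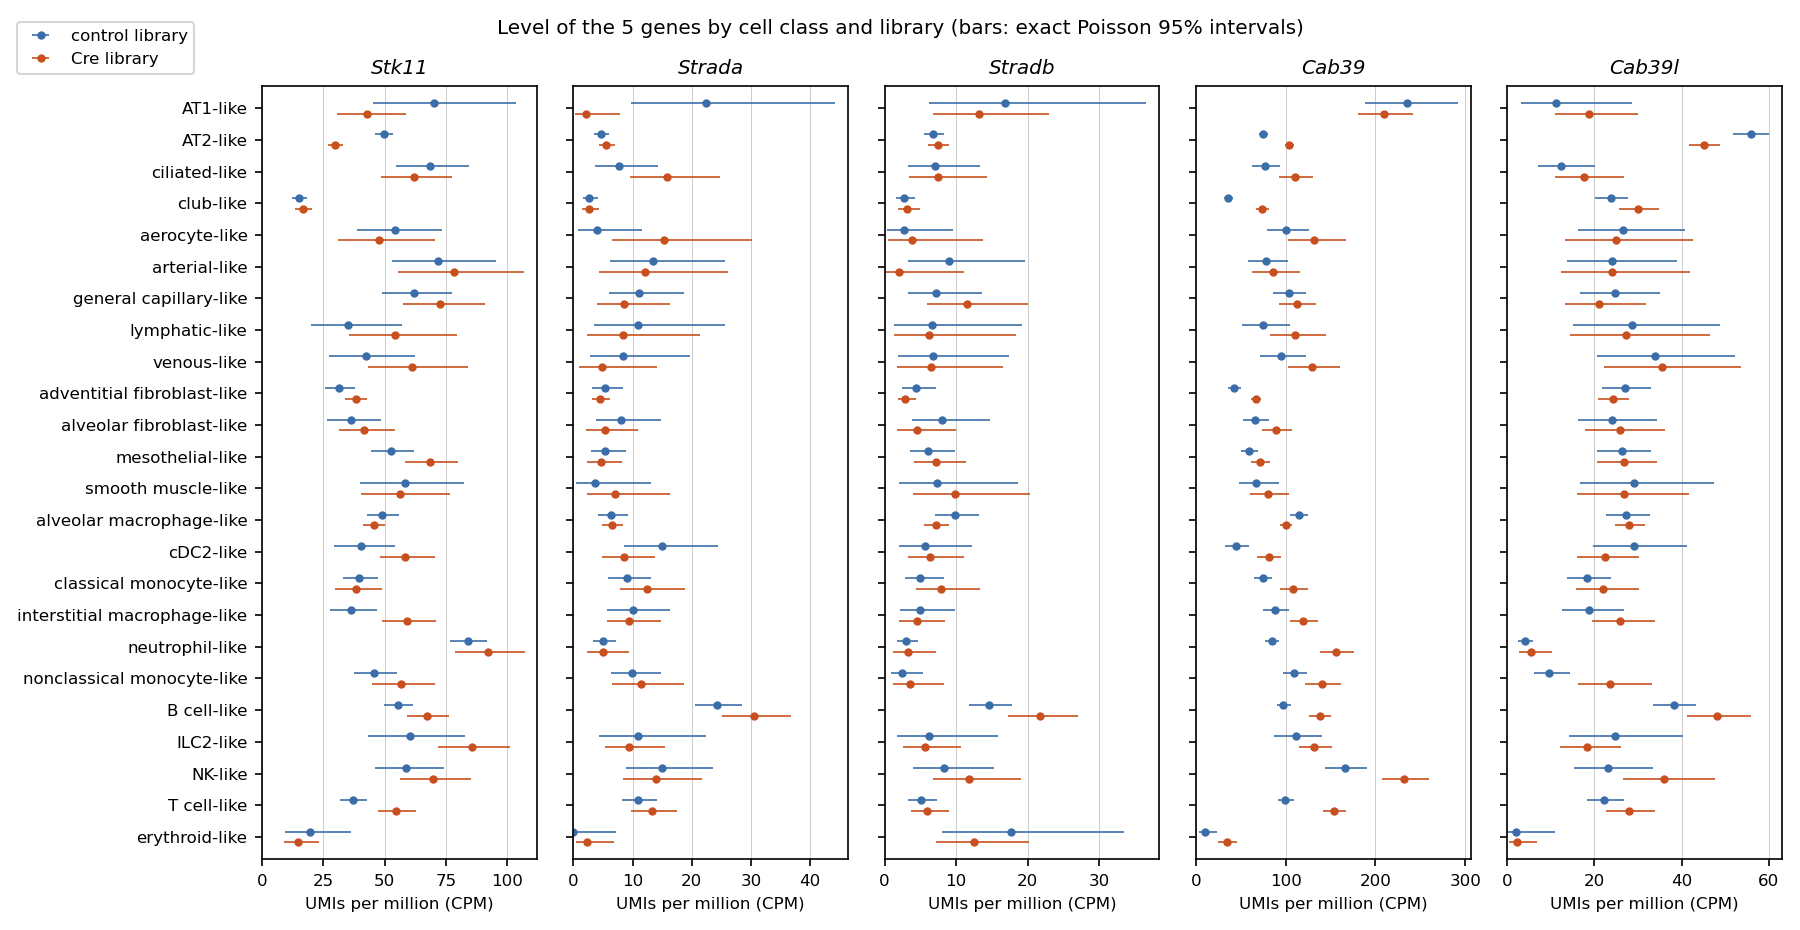
Levels of the 5 genes in CPM (linear axes) in the 24 classes with at least 50 cells in both libraries. Points are class sums of 1 library (blue control, orange Cre) and bars are exact Poisson 95% intervals; Stk11 in AT2-like cells stands at 49.7 CPM for the control and 29.9 for the Cre library, and Cab39 is highest in AT1-like and NK-like cells of both libraries.

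The STRAD genes were captured at a much lower level than Stk11, and most classes held few of their UMIs. Over all kept cells Strada had 584 control and 598 Cre UMIs (8.45 and 8.03 CPM), and Stradb had 459 and 561 (6.64 and 7.53 CPM), beside 3295 and 3427 of Stk11 (47.7 and 46.0 CPM). Each UMI stands for a captured transcript whatever its length, but capture of the 3' end can differ between genes. Strada was highest in B cell-like cells of both libraries, with 24.3 CPM (20.6 to 28.4) for the control and 30.5 CPM (25.1 to 36.8) for the Cre library. In the Cre library the next class, ciliated-like cells at 15.9 CPM (9.56 to 24.8), did not overlap it, though the wider intervals of aerocyte-like (6.61 to 30.2) and arterial-like cells (4.41 to 26.2) did. In the control AT1-like cells at 22.4 CPM (9.69 to 44.2, from 8 UMIs) overlapped it. Erythroid-like cells of the control held no Strada UMI, which allows up to 5.89 CPM at 3 counts, and those of the Cre library held 3. Stradb was also high in B cell-like cells, with 14.6 CPM (11.8 to 17.9) for the control and 21.7 CPM (17.2 to 27.1) for the Cre library. Erythroid-like cells, in contrast to their low Strada, had the highest control level of Stradb at 17.7 CPM (8.08 to 33.5, from 9 UMIs) and 12.5 CPM (7.12 to 20.2) in the Cre library.

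The MO25 genes differed in where they were expressed. Cab39, the MO25alpha gene, was the most abundant of the 5 over all kept cells, with 5623 control and 7983 Cre UMIs (81.4 and 107 CPM). AT1-like and NK-like cells headed its order, at 236 CPM (188 to 292) and 166 CPM (144 to 191) in the control and at 210 CPM (181 to 242) and 232 CPM (207 to 259) in the Cre library. Erythroid-like cells were lowest in both libraries, at 9.82 and 34.3 CPM, and club-like cells were next to lowest in the control at 36.1 CPM. Cab39l, the MO25beta gene, had 2038 control and 2256 Cre UMIs (29.5 and 30.3 CPM). It was highest in AT2-like cells of the control at 55.8 CPM (51.9 to 60.04), with no overlap with the next class, B cell-like cells at 38.2 CPM (33.5 to 43.4), and with venous-like cells (20.7 to 52.3) as the only class whose interval reached it. In the Cre library B cell-like cells at 48.2 CPM (41.3 to 55.8) and AT2-like cells at 45.2 CPM (41.7 to 48.9) overlapped. Neutrophil-like cells, the highest class for Stk11, were among the lowest for Cab39l, at 3.98 CPM for the control and 5.55 for the Cre library, and AT1-like cells, the highest control class for Cab39, had 11.2 and 18.7 CPM of Cab39l.

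Stk11 was lower in the Cre library in both alveolar epithelial classes. In AT2-like cells, which make surfactant, 650 control and 412 Cre UMIs gave 49.7 and 29.9 CPM, a ratio of 0.601 (0.530 to 0.681). In AT1-like cells, through which gas is exchanged, 25 and 39 UMIs gave 70.1 and 42.8 CPM and a ratio of 0.611 (0.360 to 1.05), so that 1 lies within the interval. Neither airway class stood apart from 1: the ratio was 1.09 (0.818 to 1.46) in club-like secretory cells and 0.905 (0.655 to 1.25) in ciliated-like cells. Ratios of at least 1.5-fold in classes with 50 or more UMIs of the gene were counted: Stk11 met this downward in 2 of 22 classes, AT2-like and AT1-like cells, and upward in 1, interstitial macrophage-like cells. Of all genes measured in AT2-like cells 4.31% were as low, in AT1-like cells 7.52%, and in interstitial macrophage-like cells 16.8% were as high. The interval of Stk11 lay below 1 in AT2-like cells, as did that of 10.2% of all genes there.

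The typical gene was itself higher in the Cre library, so a ratio of 1 is not the level of the other genes. The median ratio over genes with 50 or more UMIs was 1.59 for club-like cells, 1.18 for AT2-like cells, 1.12 for ciliated-like cells and 1.04 for AT1-like cells. Sftpc, the surfactant protein C transcript, alone made up 221829 CPM of the AT2-like control sum and 155231 CPM of the Cre sum. Relative to the median gene, Stk11 stood at 0.511 for AT2-like cells, 0.585 for AT1-like cells, 0.687 for club-like cells and 0.810 for ciliated-like cells. By that measure AT2-like and AT1-like cells were again the 2 classes past 1.5-fold downward, where 8.37% and 9.29% of genes were as low, and no class was past it upward.

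The ratio of Stk11 in each epithelial class was then set against that of the cells outside the epithelium. Non-epithelial cells together held 2252 control and 2642 Cre UMIs of Stk11, 50.8 and 53.2 CPM, a ratio of 1.05 (0.989 to 1.11). The ratio in AT2-like cells was 0.574 (0.502 to 0.658) times that, and the ratio in AT1-like cells 0.584 (0.352 to 0.967) times. For club-like cells this ratio of ratios was 1.05 (0.786 to 1.39) and for ciliated-like cells 0.864 (0.631 to 1.18). With each class taken relative to its own median gene, the value for AT1-like cells was 0.620 (0.374 to 1.03) and that for club-like cells 0.728 (0.547 to 0.970), so the interval of the first then held 1 and that of the second did not. The non-epithelial sums, here and for the other genes below, pool classes in different proportions. Neutrophil-like cells, for one, were 15.5% of control and 7.50% of Cre cells. The part of this mix in the non-epithelial ratios was not tested, and their intervals do not cover it.

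Outside the epithelium Stk11 was more often above than below 1: of 18 classes with enough UMIs, 14 were above 1, with a median of 1.198 and a range from 0.882 in aerocyte-like to 1.63 in interstitial macrophage-like cells. Of the same 18 classes, 13 were above their median gene. Interstitial macrophage-like cells had 36.3 control and 59.3 Cre CPM, a ratio of 1.63 (1.18 to 2.27), or 1.43 relative to their median gene. In T cell-like cells the ratio was 1.48 (1.21 to 1.81), from 37.0 and 54.7 CPM. The 3 T cell-like clusters had 31.6 and 38.7 CPM, 43.8 and 73.8 CPM, and 49.98 and 78.2 CPM in the control and the Cre library. The first held 601 control and 676 Cre cells, the second 235 and 422, and the third 161 and 70. Intervals of the libraries overlapped in the first (25.8 to 38.4 and 30.6 to 48.2) and the third, and not in the second (32.9 to 57.1 and 60.4 to 89.2). The class thus mixes its clusters in different proportions, and the part of this mix in its ratio was not tested. Intervals above 1 were also seen for B cell-like (1.21), cDC2-like dendritic (1.45) and mesothelial-like cells (1.30). Intervals above 1 were held by 24.1% of all genes in interstitial macrophage-like, 37.9% in T cell-like, 33.1% in B cell-like, 23.4% in cDC2-like and 13.4% in mesothelial-like cells.

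**Figure D2:**
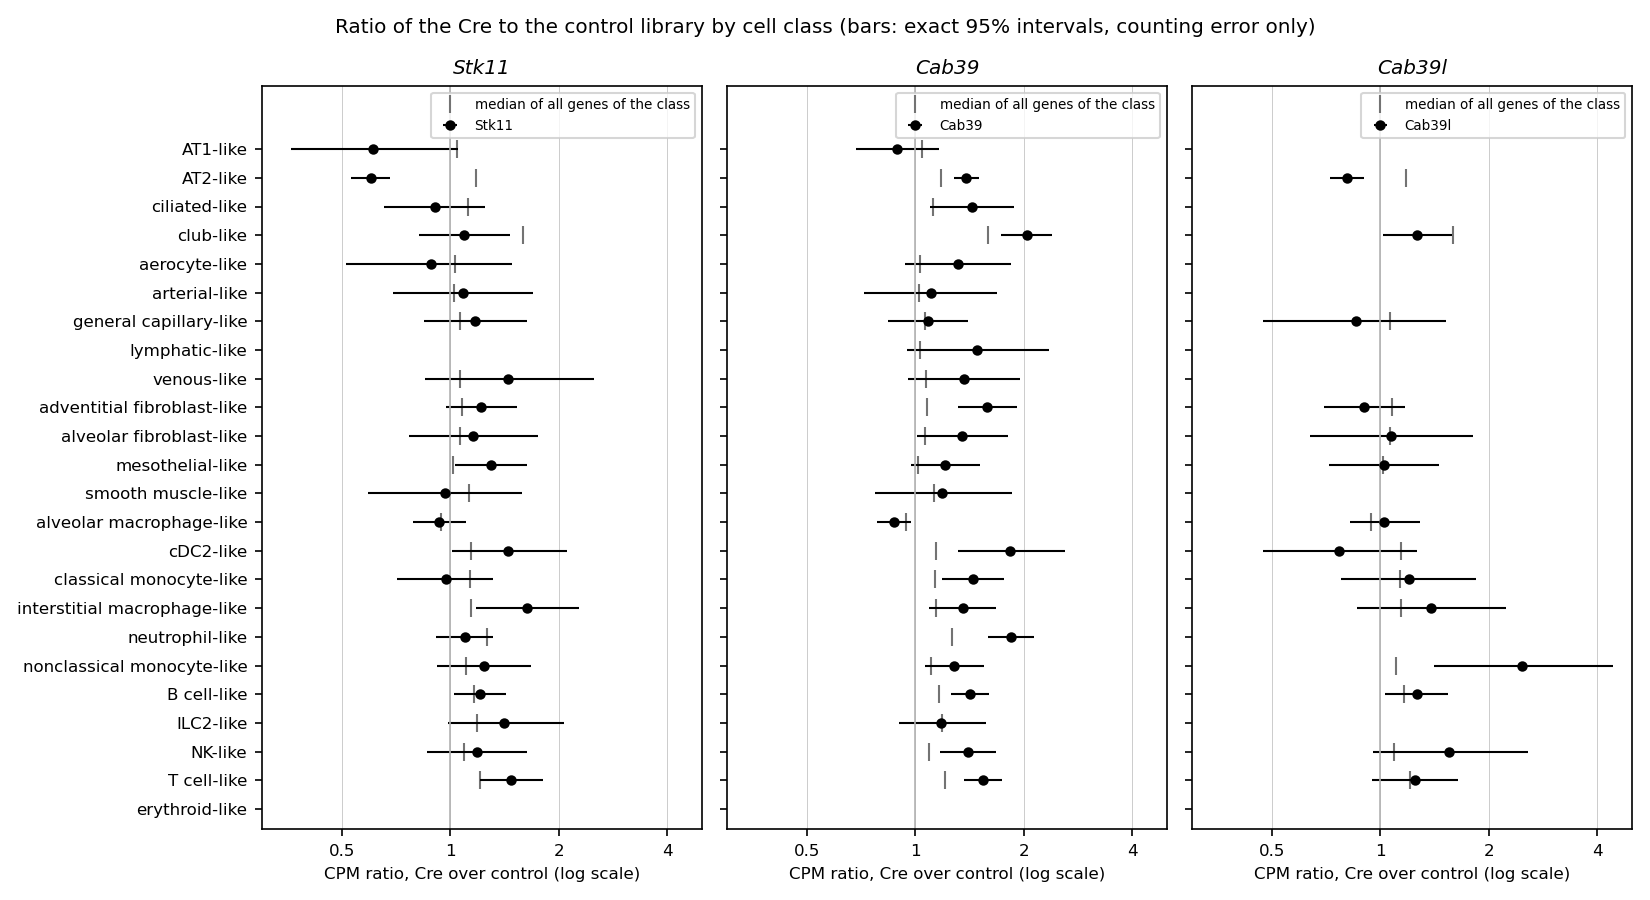
Ratio of CPM in the Cre to the control library (log axis) for Stk11, Cab39 and Cab39l in each class with at least 50 UMIs of the gene over both libraries. Points are ratios with exact 95% intervals and grey ticks are the median ratio of all genes of the class; Stk11 is at 0.601 in AT2-like cells against a median gene of 1.18, while Cab39 is above 1 in most classes.

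Stk11 UMIs were also found in fewer AT2-like cells of the Cre library. At least 1 UMI was present in 505 of 1210 control cells (41.7%) and 368 of 1600 Cre cells (23.0%), at median depths of 10681.5 and 8165.5 UMIs. Each cell was then drawn down to 1000 UMIs and shallower cells were left out, which removed no AT2-like cell. At this depth the shares were 5.79% (4.54 to 7.25) and 3.19% (2.38 to 4.17). Cells with 2 or more Stk11 UMIs numbered 112 in the control and 41 in the Cre library, and no cell held more than 4. Stk11 is expressed in nearly all cell types, so no class serves as its blank. Free RNA was present in both libraries: at 1000 UMIs per cell 45.5% of B cell-like cells of the control and 48.9% of those of the Cre library held an Sftpc UMI, at median depths of 3047.5 and 1991 UMIs, and its part in the Stk11 level of AT2-like cells was not tested. The tags come from transcript 3' ends and the labels do not give which part of Stk11 is floxed, so a transcript that lacks the deleted part may still be counted, and the level of Stk11 checks the genotype labels little.

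Strada and Stradb showed no clear difference in AT2-like cells. Strada had 61 control and 77 Cre UMIs, 4.66 and 5.58 CPM, and a ratio of 1.197 (0.845 to 1.70). Stradb had 89 and 103 UMIs, 6.80 and 7.46 CPM, and a ratio of 1.10 (0.819 to 1.47). These intervals leave room for a STRAD ratio anywhere from somewhat below to well above 1, so equality was not shown. In AT1-like cells Strada had 8 control and 2 Cre UMIs, a ratio of 0.0979 (0.0101 to 0.491), which rests on 10 UMIs in all and is below the count required for a call. Stradb had 6 control and 12 Cre UMIs there, 16.8 and 13.2 CPM. In ciliated-like cells Strada had 10 and 19 UMIs, a ratio of 2.04 (0.904 to 4.92). Strada reached 50 UMIs in 5 classes and Stradb in 3, and none of these was 1.5-fold from 1. The nearest was Stradb in B cell-like cells at 1.49 (1.09 to 2.03), or 1.28 relative to the median gene, with an interval above 1 as for 33.1% of genes in that class. The lowest ratio of Stradb was in alveolar macrophage-like cells at 0.727 (0.487 to 1.09).

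Cab39 was higher in the Cre library in most classes, the epithelium included. In AT2-like cells 983 control and 1437 Cre UMIs gave 75.1 and 104 CPM, a ratio of 1.39 (1.28 to 1.51). This is 1.18 relative to the median gene, and 45.8% of all genes of AT2-like cells had an interval above 1. In club-like cells 242 and 419 UMIs gave 36.1 and 73.6 CPM, a ratio of 2.04 (1.73 to 2.40), or 1.28 relative to the median gene. Ciliated-like cells had a ratio of 1.43 (1.10 to 1.88) and AT1-like cells one of 0.890 (0.685 to 1.17), whose Cab39 level was high in both libraries. Set against the non-epithelial ratio of 1.24 (1.19 to 1.30), the ratio of ratios was 1.64 (1.39 to 1.93) in club-like cells and 0.716 (0.552 to 0.928) in AT1-like cells. Relative to each class's median gene it was 1.14 (0.968 to 1.34) in club-like cells, an interval that holds 1, and 0.760 (0.586 to 0.986) in AT1-like cells.

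Cab39 was past 1.5-fold upward in 5 of 23 classes and in none downward. These were club-like (2.04), neutrophil-like (1.85), cDC2-like (1.83), adventitial fibroblast-like (1.58) and T cell-like cells (1.54). The shares of all genes as high were 58.0%, 29.0%, 21.1%, 12.1% and 19.7% in these classes. Relative to the median gene 1 class remained past 1.5-fold, cDC2-like cells at 1.60, where 12.6% of genes were as high. Of 19 non-epithelial classes with enough UMIs, 18 were above 1 and 17 were above their median gene. Alveolar macrophage-like cells went the other way, with 115 control and 100.2 Cre CPM and a ratio of 0.873 (0.782 to 0.975), against a median gene of 0.944 in that class. An interval below 1 was common there, at 24.1% of all genes.

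Cab39l, in contrast to its paralogue, was lower in AT2-like cells of the Cre library. There 731 control and 624 Cre UMIs gave 55.8 and 45.2 CPM, a ratio of 0.810 (0.727 to 0.902) and 0.688 relative to the median gene. Neither value was past 1.5-fold, and 10.2% of all genes of AT2-like cells had an interval below 1. The non-epithelial ratio was 1.16 (1.07 to 1.26), and the AT2-like ratio was 0.699 (0.611 to 0.8004) times it. In club-like cells Cab39l had 159 and 171 UMIs, 23.7 and 30.02 CPM, with a ratio of 1.27 (1.01 to 1.58) that was below the median gene of that class, at 0.794 of it. AT1-like cells held 4 and 17 UMIs of Cab39l and ciliated-like cells 16 and 21, too few to call. Of 14 classes with enough UMIs, none was 1.5-fold lower and 2 were 1.5-fold higher. These were nonclassical monocyte-like cells at 2.48 (1.41 to 4.42), from 23 and 33 UMIs, and NK-like cells at 1.55 (0.956 to 2.56). In the same classes 12.2% and 11.2% of all genes were as high. The nonclassical monocyte-like cells alone were past 1.5-fold relative to the median gene, as were 6.30% of genes there.

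The proportion of MO25 transcripts that came from Cab39l does not depend on the total UMIs of a class. In AT2-like cells Cab39l made up 42.6% (40.3 to 45.03) of the MO25 UMIs in the control and 30.3% (28.3 to 32.3) in the Cre library. In club-like cells the share was 39.7% (34.8 to 44.6) and 29.0% (25.4 to 32.8). Adventitial fibroblast-like cells, a mesenchymal class, had 39.0% (32.7 to 45.5) and 26.6% (23.4 to 30.1), and cDC2-like cells 39.7% (28.8 to 51.5) and 21.6% (16.1 to 28.1). These 4 classes had the 4 highest control shares and were the classes of 22 whose intervals did not overlap. The same count was not made for other pairs of genes, so how unusual 4 of 22 is was not tested. Of the 2 clusters that make up the club-like class, the larger had shares of 33.8% (28.5 to 39.4) and 28.4% (24.1 to 33.0), which overlap, and the smaller 58.3% (47.8 to 68.3) and 30.5% (23.7 to 37.9), the first from only 20 control cells. The 2 clusters of adventitial fibroblast-like cells had 36.5% (29.0 to 44.6) and 25.9% (22.4 to 29.6), and 43.8% (32.7 to 55.3) and 31.1% (22.3 to 40.9), with overlapping intervals in each. In all, 17 classes were lower and 5 higher in the Cre library. B cell-like cells had 28.2% and 25.8%, and the non-epithelial cells together 20.5% (19.4 to 21.7) and 19.4% (18.4 to 20.3). Neutrophil-like cells (4.48% and 3.42%) and AT1-like cells (4.55% and 8.17%) drew their MO25 transcripts almost entirely from Cab39 in both libraries.

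**Figure D3:**
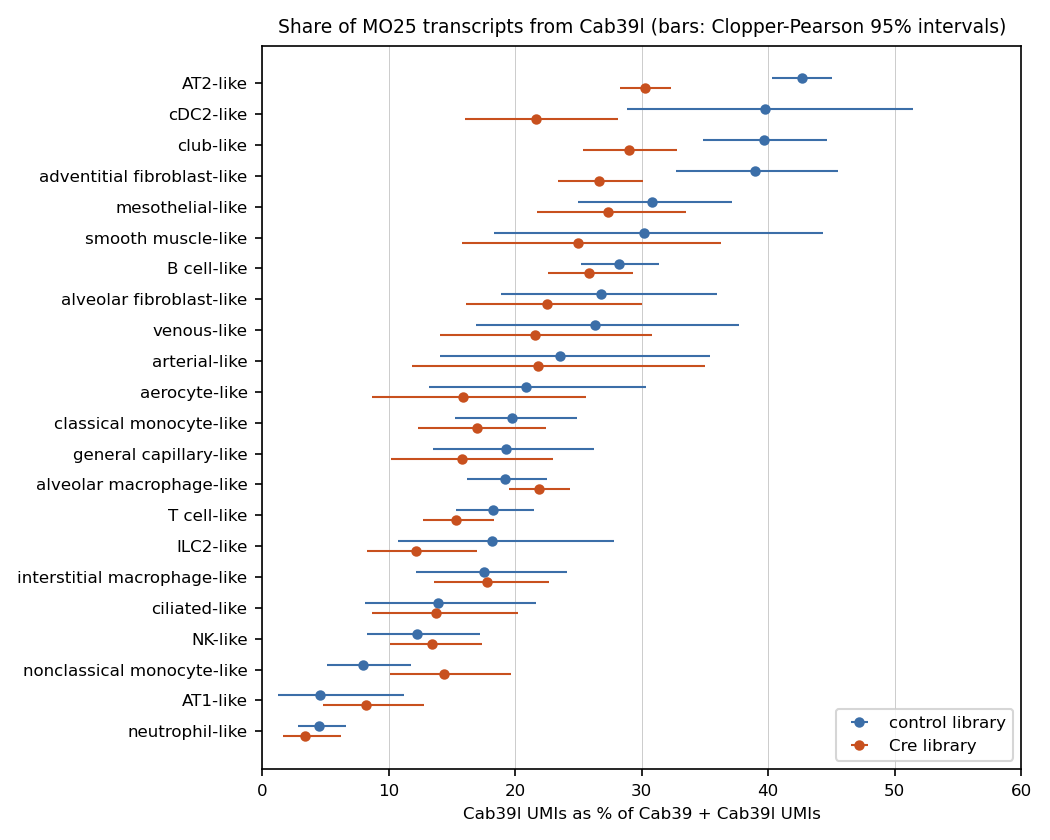
Cab39l UMIs as a percent of Cab39 and Cab39l UMIs in 22 classes (blue control, orange Cre library), with Clopper-Pearson 95% intervals, ordered by the control share. The share in AT2-like cells is 42.6% in the control and 30.3% in the Cre library, and the intervals of the libraries also do not overlap in the cDC2-like, club-like and adventitial fibroblast-like classes.

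The intervals of the division of STRAD transcripts overlapped between the libraries in each class where it could be read. Such overlap does not exclude a difference, and the intervals below show how wide a difference would have been missed. Stradb made up 59.3% (51.0 to 67.3) of STRAD UMIs in control and 57.2% (49.6 to 64.6) in Cre AT2-like cells. The share was 55.9% in both libraries over the whole epithelium, and 40.3% (36.9 to 43.9) and 45.8% (42.4 to 49.2) over the non-epithelial cells. These last intervals overlap only between 42.4% and 43.9%. In B cell-like cells Stradb made up 37.6% of the control and 41.6% of the Cre STRAD UMIs, and in alveolar macrophage-like cells 60.6% and 52.4%. In erythroid-like cells all 9 control STRAD UMIs and 84.2% of 19 Cre STRAD UMIs came from Stradb. Stradb also gave 85.7% of 14 STRAD UMIs in Cre AT1-like cells and 14.3% of 7 in Cre arterial-like cells, against 42.9% and 40% in the control. Of the 4 classes with at least 50 STRAD UMIs in each library, none had intervals that did not overlap.

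Stk11 made up a smaller part of the transcripts of its own complex in AT2-like cells of the Cre library. Of the UMIs of the 5 genes together, 25.9% (24.2 to 27.6) were Stk11 in the control and 15.5% (14.2 to 16.96) in the Cre library. The corresponding shares were 18.8% (15.6 to 22.3) and 13.1% (10.7 to 15.8) in club-like cells, 19.7% and 14.9% in AT1-like cells and 39.6% and 29.0% in ciliated-like cells. Non-epithelial cells had 28.4% (27.4 to 29.4) and 25.8% (24.99 to 26.7). Of 23 classes 13 were lower and 10 higher in the Cre library, and the intervals were apart in AT2-like and in neutrophil-like cells. Here too no count for other sets of genes was made beside it. In neutrophil-like cells the share was 46.5% and 35.1%, at a Stk11 ratio of 1.10 and a Cab39 ratio of 1.85.

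Transcripts of all 3 parts of the complex were seldom captured in 1 cell. Stk11, a STRAD gene and a MO25 gene were found together in 46 of 1210 control AT2-like cells (3.80%) and 31 of 1600 Cre cells (1.94%, 1.32 to 2.74). No UMI of any of the 5 genes was present in 14.3% of AT2-like cells of the control and 22% of those of the Cre library. A STRAD gene was the rarest part, present in 11.3% and 10.5% of cells, while a MO25 gene was present in 73.3% and 69.9%. These shares depend on depth, which was lower in the Cre library. At 1000 UMIs per cell all 3 parts were found in 0 control and 1 Cre cell and none of the 5 in 80.8% and 81.9%, so at equal depth the capture of the whole complex in a cell could not be compared. At this depth Cab39 had a UMI in 7.44% (6.02 to 9.06) of AT2-like cells in the control and in 10.1% (8.69 to 11.7) in the Cre library, and Cab39l in 6.03% (4.76 to 7.53) and 4.25% (3.32 to 5.36), the same directions as the CPM. In club-like cells, of which 197 control and 246 Cre cells reached 1000 UMIs, the share with Cab39 was 2.03% (0.556 to 5.12) and 13.01% (9.07 to 17.9).

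Sox9, a transcription factor of distal lung progenitors, had 4 UMIs in control AT2-like cells and 2684 in those of the Cre library, and the Cre cells were divided by whether they held a Sox9 UMI. Stk11 stood at 29.0 CPM (25.2 to 33.2) in the 781 cells with a Sox9 UMI and at 30.8 CPM (26.7 to 35.3) in the 819 cells without, against 49.7 CPM (45.9 to 53.6) in the control. The low Stk11 level was thus present on both sides of the division. Cab39 was at 104 CPM in both sets. Cab39l was at 41.5 CPM (36.9 to 46.5) with and 49.3 CPM (44.1 to 54.9) without a Sox9 UMI. These intervals overlap only between 44.1 and 46.5 CPM, and the difference itself was given no interval. Both levels were below the control level of 55.8 CPM (51.9 to 60.04), whose interval overlaps the second and not the first. Strada and Stradb were between 5.26 and 7.56 CPM in both sets. Median depth was 8514 UMIs in cells with and 7789 in cells without a Sox9 UMI.

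**Figure D4:**
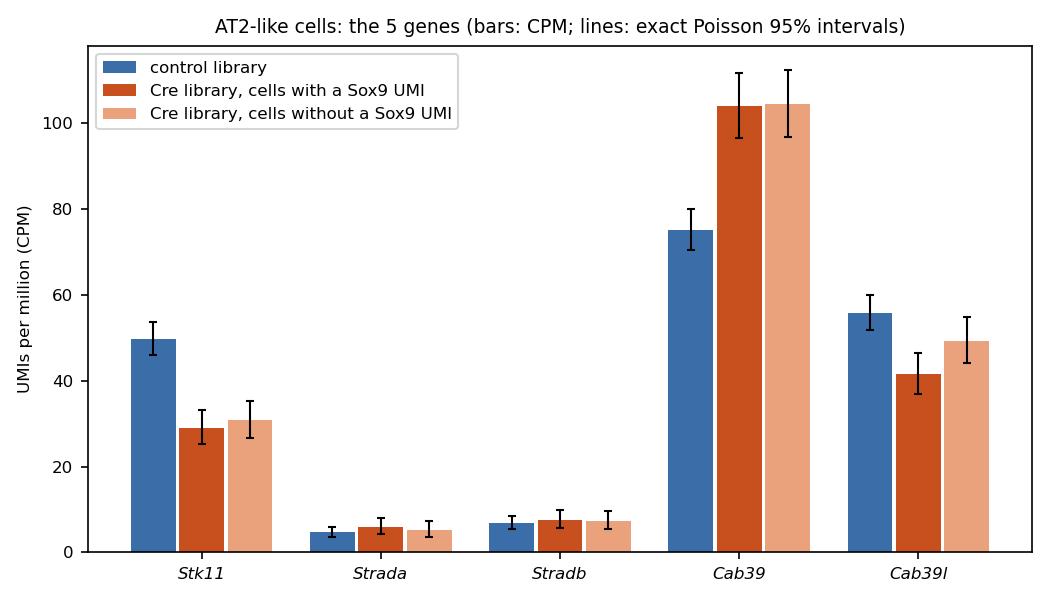
Levels in CPM (bars, linear axis from 0) of the 5 genes in AT2-like cells of the control library and of the Cre library divided by the presence of a Sox9 UMI, with exact Poisson 95% intervals. Stk11 is at 29.0 and 30.8 CPM in the Cre sets against 49.7 CPM in the control, and Cab39 is at 104 CPM in both Cre sets.

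The club-like class was made of 2 clusters in which the MO25 genes stood differently. Top genes of the larger included Scgb1a1, Cyp2f2 and Scgb3a2, and those of the smaller Reg3g, Clca1, Tff2, Agr2 and the mucin gene Muc5b. The smaller held 20 of 206 control and 62 of 265 Cre cells, so values of the whole class mix the clusters in different proportions. The part of this mix in the class ratios was not tested. In the larger (186 control and 203 Cre cells) Cab39l was at 18.1 CPM (14.8 to 21.9) in the control and 29.6 CPM (24.5 to 35.4) in the Cre library. In the smaller (20 and 62 cells) it was at 55.9 CPM (42.2 to 72.5) and 31.1 CPM (23.3 to 40.6), so the direction differed between the clusters, and the 20 control cells of the smaller one are few. Cab39 was higher in the Cre library in both, at 35.4 and 74.7 CPM in the larger and at 39.9 and 70.9 CPM in the smaller. Stk11 was at 14.0 and 15.5 CPM in the larger cluster and at 20.9 and 18.8 CPM in the smaller, with overlapping intervals. Median depth of club-like cells was 37577.5 UMIs in the control and 23002 in the Cre library, and its part in these values was not tested.

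Clusters that carried AT2 markers most strongly but were left without a name, mostly because they also carried markers of another lineage, held 252 control cells (2.02% of kept cells) and 202 Cre cells (1.38%). In these Stk11 was at 39.7 CPM (27.7 to 55.2) in the control and 29.6 CPM (19.5 to 43.1) in the Cre library, Cab39 at 53.3 and 98.7 CPM and Cab39l at 61.3 and 50.5 CPM. Added to the AT2-like cells they gave Stk11 levels of 49.0 and 29.8 CPM. All unnamed clusters together held 3.62% of control and 2.96% of Cre cells.

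The kinases and cofactors around the complex were read in AT2-like cells from lists made for this purpose, with the median log2 ratio of all genes there at 0.24. Of 7 AMPK subunit genes 6 had enough UMIs, with 1 past 1.5-fold upward, 0 downward and a median log2 ratio of 0.15. The member past it was Prkab1, a regulatory beta subunit, at 26.4 and 41.7 CPM and a ratio of 1.58 (1.38 to 1.82), and 17.4% of all genes were as high. Relative to the median gene none was past it upward and 2 were downward, Prkaa2, a catalytic alpha subunit, at 0.625 and Prkab2 at 0.632, where 8.37% of all genes were as low. Of 12 AMPK-related kinase genes, which the LKB1 complex phosphorylates, 9 had enough UMIs, with a median log2 ratio of 0.48. Of these 9, 0 were past 1.5-fold downward and 4 were past it upward, where 17.4% of all genes were as high. Nuak1 had the largest ratio of these at 2.78 (1.81 to 4.40), from 29 and 85 UMIs. Sik1, a salt-inducible kinase, was at 23.7 and 46.4 CPM, a ratio of 1.96 (1.71 to 2.25). Nuak2 stood at 1.59 (1.29 to 1.95), and the fourth was Sik2 at 1.57 (1.04 to 2.38). Relative to the median gene Nuak1 and Sik1 remained past 1.5-fold, as were 8.83% of all genes.

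None of the 3 genes of other kinases that act on AMPK (Camkk1, Camkk2 and Map3k7) was past 1.5-fold, with a median log2 ratio of -0.14. Camkk1 was past it downward relative to the median gene, at 0.633, as were 8.37% of all genes. The list of LKB1 regulators and chaperones had 2 of 7 past it upward, both HSP90 chaperone genes, Hsp90ab1 at 2.19 (2.14 to 2.25) and Hsp90aa1 at 1.56 (1.51 to 1.61), where 17.4% of all genes were as high, and a median log2 ratio of 0.19. Hsp90ab1 alone of these 7 was past it relative to the median gene, at 1.86, and Hsp90aa1 stood at 1.32. Among 5 STE20 kinases that bind MO25, Stk39, a regulator of ion cotransporters, was at 1.77 (1.51 to 2.07), with a list median of 0.42. It was the only one past 1.5-fold, where 17.4% of all genes were as high. Relative to the median gene Stk39 was again the only one, at 1.502, just past the limit, as were 8.83% of all genes. The 5 genes of the complex had 0 past 1.5-fold upward and 1 downward (Stk11), where 4.31% of all genes were as low. Their median log2 ratio was 0.13. In club-like cells, where the median gene was at 0.67 on the log2 scale, 5 of 6 measured AMPK subunits, 4 of 6 AMPK-related kinases and 4 of 4 STE20 kinases were past 1.5-fold upward, as were 58.0% of all genes.

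**Figure D5:**
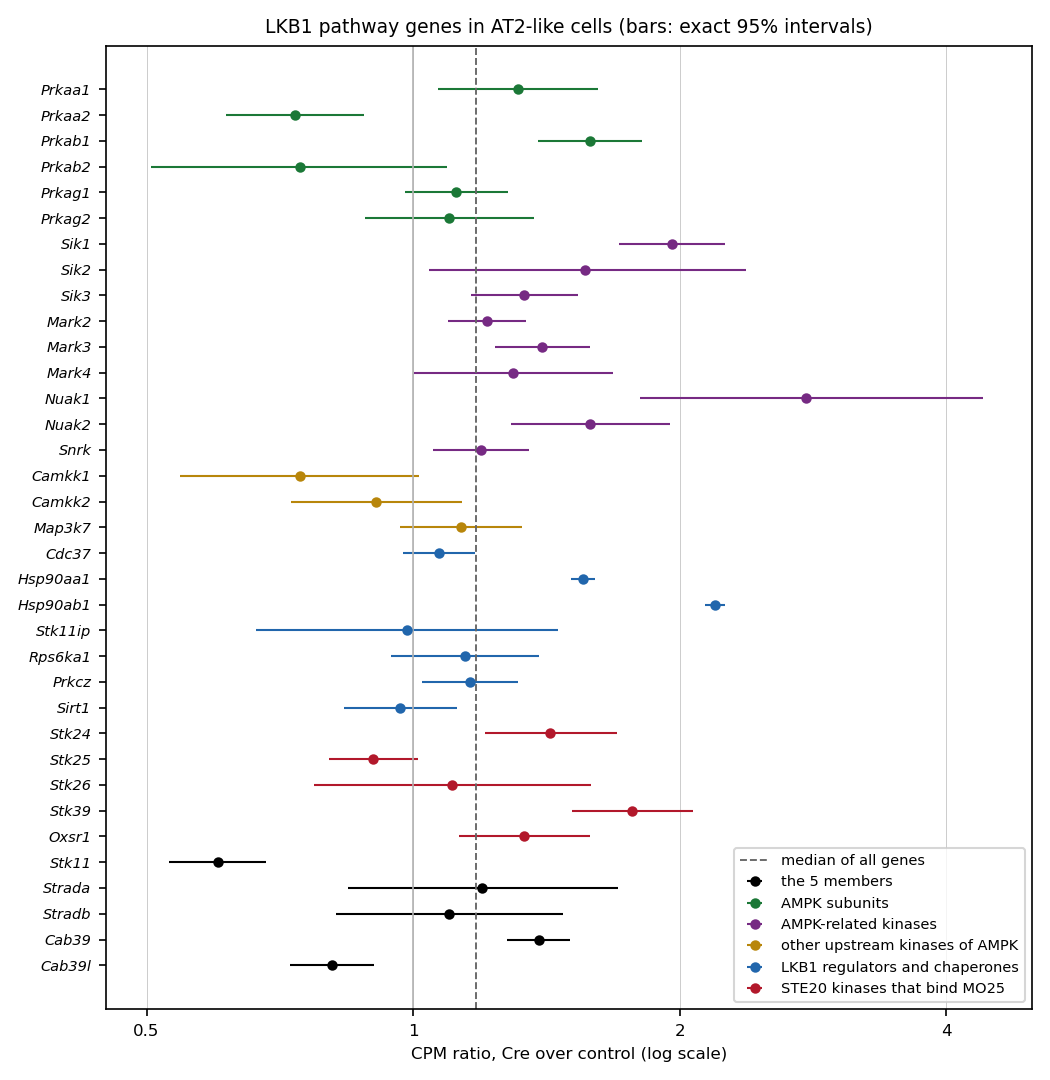
Ratio of CPM in the Cre to the control library (log axis) in AT2-like cells for the members of the LKB1 pathway lists with at least 50 UMIs, with exact 95% intervals and the median of all genes as a dashed line at 1.18. Stk11 (0.601) is the lowest and Nuak1 (2.78) the highest point.

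Across classes the members had unlike patterns. Over the 24 control and 26 Cre classes with at least 50 cells, the Pearson correlation of log2(CPM + 5) was 0.687 and 0.564 between Stk11 and Cab39 and 0.695 and 0.415 between Strada and Cab39. It was 0.256 and 0.323 between the MO25 paralogues and 0.250 and 0.205 between the STRAD paralogues, and near 0 between Stk11 and Cab39l (0.042 and 0.140). The gene most like Stk11 among 8986 considered in the control was Gpkow (0.858 in the control, 0.470 in the Cre library), followed by Slain2, Rnf167, Mgea5 and Ralgapa1, the last at 0.798 and 0.807. Strada was most like Tmem123 (0.848 and 0.379), Lemd3, Traf6, Casp8ap2 and Dyrk1a. Stradb had the weakest matches, led by Tfdp2 (0.691 and 0.432) with Tab3, Fzr1 and Xpo7 among the closest. The STRAD genes had few UMIs, 584 of Strada and 459 of Stradb over all kept control cells. The part of these low counts in their correlations was not tested. Cab39 was most like Cd2bp2 (0.897 and 0.738), Vps53, Gak, Ap1g1 and Lrp10. For Cab39l they were Xrcc6 (0.834 and 0.149), Hddc2, Mbd3, Mettl1 and Dtymk. The points of each correlation share a library and differ in depth, and the matches were picked in the control, where they are highest by choice.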

How the data were processed

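The authors deposited raw UMI counts per gene and barcode for 2 libraries of 10x Chromium 3' v3 chemistry, per the labels' protocols and the file headers. Cell Ranger 3.1.0, STAR and mm10 are named per the submitters' processing notes. For the annotation, the authors' filters and the use of strand, the sources used here give nothing. The lowest barcode total was 500 UMIs.

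Cells with at least 200 genes, 500 UMIs and at most 20% mitochondrial UMIs were kept (86 control and 1035 Cre barcodes failed on genes, 643 and 686 on mitochondrial UMIs), and barcodes called doublets by Scrublet in scanpy 1.11.5 (420 control, 3.09%, and 454 Cre, 2.70%) were removed. Free RNA was not subtracted. Both libraries were clustered together (2000 variable genes, 30 principal components, 15 neighbours, Leiden at resolution 1.0 with leidenalg 0.10.2), which gave 50 clusters. A cluster was named "X-like" from marker lists of 37 classes when its mean marker log2 level was at least 1.0, at least 3 markers were 2-fold higher and 1 or more stood among its top 10 genes, and no other lineage reached 0.8 and 0.4 of its level. These limits were set with the data in view. Marker gating of cell types was done through these clusters.

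UMIs were summed per class and library. Levels carry exact Poisson, ratios exact conditional binomial, shares Clopper-Pearson and ratios of ratios normal 95% intervals on the log scale; the interval code was tested on simulated data. Intervals and the limit of 3 counts cover counting error only. A ratio was called at 1.5-fold with 50 or more UMIs. Named genes are the 5 members, pathway genes past 1.5-fold in AT2-like cells (at most 3 a list and direction; Sik2 was named after its value was seen, as were Prkaa2, Prkab2 and Camkk1), and the 5 genes closest to each member in the control, of those with at least 500 UMIs there (1 of these is not reported here). Members and lists were chosen with earlier results of these data known. Coordinates are from GENCODE M21 and promoter windows from RefSeq, which matched all 5 members. No per-sample column was left unused.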

Additional observations from a re-analysis of the deposited data

Results flagged for a closer look

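The ratio of Cre to control of 3 members lay on opposite sides of 1 in different cell classes with intervals clear of 1 on both sides, each ratio resting on 1 library per genotype. The difference between the classes was not tested in any of these. Stk11 was at 0.601 in AT2-like cells and at 1.63 in interstitial macrophage-like cells. Cab39 was at 0.873 in alveolar macrophage-like cells and at 2.04 in club-like cells, where the median gene stood at 0.944 and 1.59. Cab39l was at 0.810 in AT2-like cells and at 2.48 in nonclassical monocyte-like cells, the latter from 23 control and 33 Cre UMIs.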

How the results depend on the processing

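Stk11 in AT2-like cells ranged from 0.511 to 0.614 over all alternatives. With genes above 1% of a class left out of the denominator, Cab39 in AT2-like cells was at 1.25 and Stk11 in club-like cells at 0.766. Relative to the median gene of the class, Stk11 was at 0.511 and Cab39 at 1.18 in AT2-like cells, Cab39l at 0.688 there, and Stk11 at 0.687 in club-like cells, so the side of 1 on which Stk11 stood in club-like cells depended on the denominator. With each cell at 1000 UMIs, Stk11 in AT1-like cells was at 0.315, from 5 control and 4 Cre UMIs. Shallower cells were left out of this setting, which kept 63 of 126 control and 160 of 327 Cre AT1-like cells, so its cells also differ. Stradb in AT2-like cells, none of which was left out, was then at 1.61, from 8 and 17 UMIs, and Cab39l there at 0.696. For the change under this thinning the cause was not tested. Strada in AT2-like cells ranged from 0.854 to 1.34 and Stradb from 0.932 to 1.61, so neither has a settled direction. In AT2-like cells the Cab39l share of MO25 UMIs ranged from 42.5% to 44.6% in the control and from 28.7% to 30.7% in the Cre library. Of the other ratios 617 of 662 moved by less than their interval, of the shares 410 of 426 and of the levels 913 of 1067. With genes above 1% of a class left out of the denominator, 67 levels moved by more and 67 did not. At 1000 UMIs per cell 58 levels moved by more and 76 did not. Whether the order of classes by level held under these settings was not examined. No paired analysis was possible because there was 1 library per genotype. Depth limits the STRAD genes most, with 150 control and 180 Cre UMIs of both together in AT2-like cells.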
